A study of Mus musculus with 26 samples.

Results

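The comparison concerns the last day of the untreated time course: neural progenitor cells that had been in serum for 48 h against the same kind of culture at 72 h. Members are all probe sets with a gene symbol on the 3 arrays titled control at 72 h and the 3 titled control at 48 h, which are 6 of the 26 arrays of the series. There are 23410 such probe sets of 35556 measured, and 21789 of them carry a single symbol. For counts over genes, 1 probe set, the brightest on average, stood for each of 19938 genes.

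The cells came from neurospheres, floating cultures of neural stem cells, grown from the ventricular zone of C57BL/6J mouse embryos at embryonic day 14 and kept in medium with EGF. From 0 h on they were differentiated on poly-L-ornithine in medium with 10% fetal bovine serum (FBS), a substrate and medium that all later groups share. Control arrays were sampled at 0, 6, 24, 48 and 72 h with 3 arrays each, and TNF-treated arrays (TNF at 50 ng/mL from 0 h) at 6, 24, 48 and 72 h with 3 arrays each, except 2 at 72 h. RNA of whole wells was hybridised to Affymetrix MoGene 1.0 ST arrays. In such bulk RNA a smaller share of cells of a type and less RNA per cell cannot be told apart.

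Neural progenitors taken out of growth factor and given serum leave the cell cycle and become astrocytes, a change that runs through STAT3 and BMP signalling and that is followed by the filament protein GFAP. Astrocytes then take up glutamate, exchange potassium and water and feed neurons with lipids and lactate. When they meet inflammatory signals they become reactive, and secrete chemokines, complement and acute phase proteins.

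Values are log2 signals, so that a difference of 1 is a doubling. A probe set was said to have changed where its q-value, the expected share of false calls, was under 0.05 in limma over all probe sets. The 6 arrays correlated with each other at 0.9861 to 0.9962, and their medians lay between 7.66 and 7.71. The array of 48 h replicate 1 correlated least with the other 5 (mean 0.9882, against 0.9917 to 0.9934 for the others). Results that rest on it are therefore also given without it where that was computed. Same-numbered arrays deviated together, with correlations of 0.401, 0.638 and 0.492 for the 3 pairs of 48 h and 72 h, and a fit with the replicate number as a block is given where it changes a result.

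By this test the untreated cells changed in very few transcripts between 48 and 72 h. *Cxcl10*, a chemokine that attracts T cells, and *Cnmd*, which encodes chondromodulin, a secreted cartilage glycoprotein that inhibits vessel growth, rose. No gene fell. *Gfap*, the astrocyte filament gene, differed by 0.02, and of 31 measured markers of mature astrocytes none changed. None of 39 mitosis genes changed either.

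Over all probe sets, 3 passed the test, all of them higher at 72 h, which is 0.00844% of those tested. By Benjamini-Hochberg adjustment the number was also 3, and it was 3 with the replicate block. At an unadjusted p under 0.05 there were 438 probe sets, 259 higher and 179 lower, where 1778 are expected if nothing changes. This number depended on the model. It was 800 with the block, 943 with only the 6 arrays compared, 1950 with the block on those 6, and 2313 and 1274 with 2 kinds of array weights, so it lay below or above the expected number by the fit chosen. Over single genes, 132 of 19938 were higher at that p, 0.662%, and 86 were lower, 0.431%. The 3 arrays of 72 h all lay above the 3 of 48 h in 3.57% of genes, and all below in 3.96%. Of all genes, 44.2% had a difference above 0, and the median difference was -0.01 (0.01 without 48 h replicate 1).

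The earlier steps of the untreated time course were larger. From 0 to 6 h, 2727 probe sets changed, 7.67% of those tested, and from 6 to 24 h 1784 changed, 5.02%. From 24 to 48 h 43 changed, 0.121%, of which 42 rose and 1 fell. The median size of the difference over genes was 0.14 from 0 to 6 h, 0.14 from 6 to 24 h, 0.09 from 24 to 48 h and 0.07 from 48 to 72 h. The 95th percentile went from 0.73 at the first step to 0.23 at the last. At the last step 7 genes differed by more than 1 on the log2 scale, 6 of them higher, with *Lcn2* the highest and *Pcp4* the lowest, while 487 did at the first step.

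**Figure D1:**
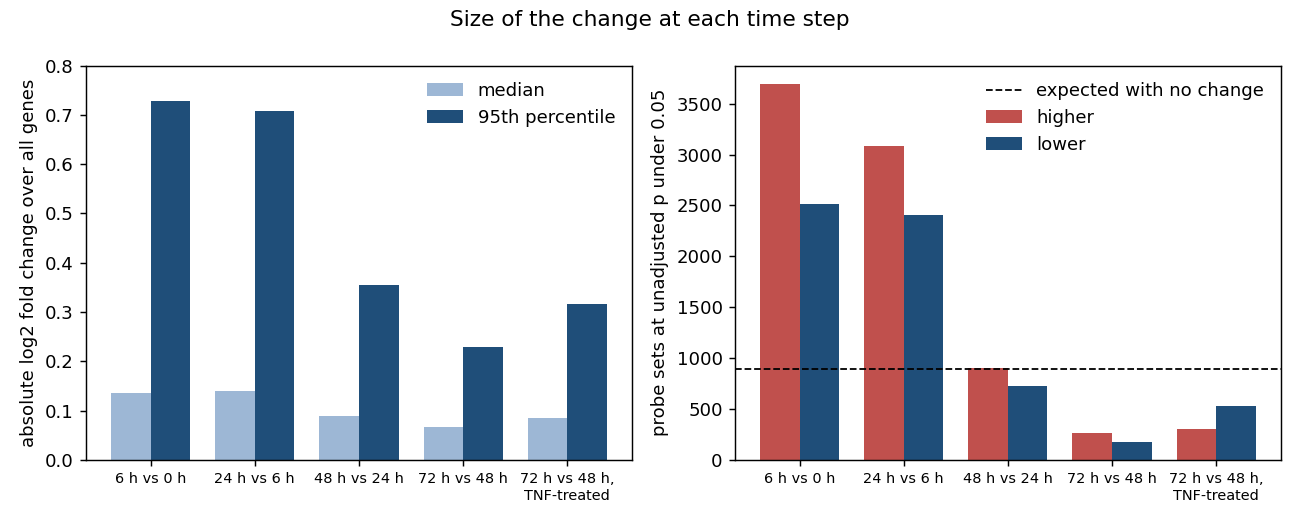
Left, the median and the 95th percentile of the absolute log2 fold change over 19938 genes at 4 untreated time steps and at the last step with TNF. Right, bars count the probe sets at unadjusted p under 0.05 that were higher or lower, and the dashed line marks the number for 1 direction if nothing changed. Both measures are lowest for untreated cells at 72 h against 48 h, with a 95th percentile of 0.23 and 259 and 179 probe sets.

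Depth is not defined for arrays, and the number of arrays sets the precision. The standard error of a gene's difference had a median of 0.14, so its 95% interval reached 0.30 to each side of the estimate at the median gene. Passing the test over all probe sets took larger changes still, so changes of this size in single genes were not detectable with 3 arrays a group.

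*Cxcl10* (probe set 10531415, gene at chr5:92346638-92348889 in GRCm38.p6) measured 8.40, 8.60 and 8.42 at 48 h and 9.44, 10.26 and 9.85 at 72 h. All 3 later arrays were above all earlier ones. The means were 8.47 ± 0.11 (SD, n = 3) and 9.85 ± 0.41 (SD, n = 3), a difference of 1.38 with a standard error of 0.21 and a limma q-value of 0.0363. The 3 same-numbered pairs differed by 1.04, 1.66 and 1.43. Its rise began on the day before, from 7.09 at 24 h, by 1.39 (q = 0.0053), and the levels at 0 and 24 h were alike at 7.12 and 7.09. With the replicate block its q-value was 0.0482. Without 48 h replicate 1 the difference was 1.34 and the q-value 0.26.

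*Cnmd* (probe set 10421853, chr14:79637682-79662194) measured 8.43, 8.34 and 8.49 at 48 h and 9.62, 9.12 and 9.67 at 72 h. The groups did not overlap, and replicate 2 was the lowest array at both times. The means of 8.42 ± 0.08 and 9.47 ± 0.30 (SD, n = 3 each) differed by 1.05 with a standard error of 0.17 (q = 0.0374, and 0.00953 with the block). From 24 to 48 h it had risen by 1.41 from a level of 7.01, close to the 6.83 of the neurospheres. Without 48 h replicate 1 the difference was 1.05 and the q-value 0.26.

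The remaining probe set that rose, 10452316, carries no symbol in the annotation table used. It measured 9.91, 9.42 and 9.85 at 48 h and 11.32, 10.87 and 11.32 at 72 h. All 3 pairs differed by nearly the same amount, 1.41, 1.45 and 1.47, and its q-value of 0.000127 was the smallest of the step. It had risen by 2.19 on the day before. It was the single probe set that passed the test when any of the 3 arrays of 48 h, or 72 h replicate 3, was left out, and in those 4 fits neither *Cxcl10* nor *Cnmd* did. Without 72 h replicate 1 *Cxcl10* passed beside it, and without 72 h replicate 2 *Cnmd* did. With only the 15 untreated arrays in the fit 2 probe sets passed, and neither belonged to *Cxcl10* or *Cnmd*.

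The bases before the start of both named genes that rose are shown because these are the genes the step turns on. They are RefSeq sequences of GRCm38.p6, 250 bases, written 5′ to 3′ on the strand of the gene. Capitals mark a match to GGGNNTTCC, an NF-κB-like motif, or to GAAANNGAA, an interferon-response-like motif, searched on both strands, and the motifs do not overlap here.
*Cxcl10*, chr5:92348890-92349139, minus strand: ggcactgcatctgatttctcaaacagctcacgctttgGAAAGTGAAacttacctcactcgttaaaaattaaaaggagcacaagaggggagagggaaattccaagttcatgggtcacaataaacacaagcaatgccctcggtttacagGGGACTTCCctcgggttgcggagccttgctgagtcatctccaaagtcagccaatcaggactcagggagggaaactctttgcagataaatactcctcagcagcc
*Cnmd*, chr14:79662184-79662433, minus strand: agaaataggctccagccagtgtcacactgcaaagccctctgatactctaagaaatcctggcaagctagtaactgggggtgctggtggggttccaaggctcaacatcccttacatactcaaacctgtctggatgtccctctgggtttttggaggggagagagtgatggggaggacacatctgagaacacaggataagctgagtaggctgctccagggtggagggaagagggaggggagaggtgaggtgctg
The *Cxcl10* window held 1 match to each motif. Only these exact letters and spacings were searched. The stretch gggaaattcc in the same window has another spacing, so it was neither marked nor counted. The NF-κB-like match lies 103 to 95 bases before the start and the interferon-response-like match 213 to 205 bases before it. The *Cnmd* window held neither set of letters. It runs from 79662184, while the gene as given above ends at 79662194, so the last bases of the window overlap those coordinates. Of 32851 windows of this length in the table, 4.98% held the NF-κB-like motif and 7.13% the interferon-response-like motif. A match is a description of the letters and does not show that a factor binds.

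The other genes of the step with the smallest p-values did not pass the test. The 8 described next were picked by p-value from genes higher at 72 h whose groups did not overlap, so non-overlap was required of them. *Ptger3*, the EP3 receptor for prostaglandin E2, measured 7.19, 7.47 and 7.18 at 48 h and 7.96, 7.95 and 7.82 at 72 h. Its difference was 0.63 with a standard error of 0.11 (q = 0.151). *Sorbs3*, which encodes the vinculin-binding adaptor vinexin, measured 8.50, 8.78 and 8.54 and then 9.25, 9.11 and 9.15, a difference of 0.56 (q = 0.208). Both had risen from 24 to 48 h, by 0.86 and 0.69.

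*Lcn2*, encoding lipocalin 2, an iron-siderophore carrier of reactive astrocytes, had the greatest difference of any gene and also a wide spread. It measured 7.59, 7.29 and 8.22 at 48 h and 9.39, 8.49 and 10.05 at 72 h. The groups were apart, and replicate 2 was the lowest array at both times. The difference was 1.61 with a standard error of 0.35 and a limma q-value of 0.69. The transcript E330013P04Rik differed by 1.16 (q = 0.69, and 0.0853 with the block). *Slco1a5*, an organic anion transporter, differed by 1.06, *Gpld1*, a phospholipase that cuts GPI anchors, by 0.71, *Chgb*, encoding chromogranin B of secretory granules, by 0.66, and *Ctnna3*, encoding an alpha-catenin of cell junctions, by 0.53, with q-values between 0.954 and 1.

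**Figure D2:**
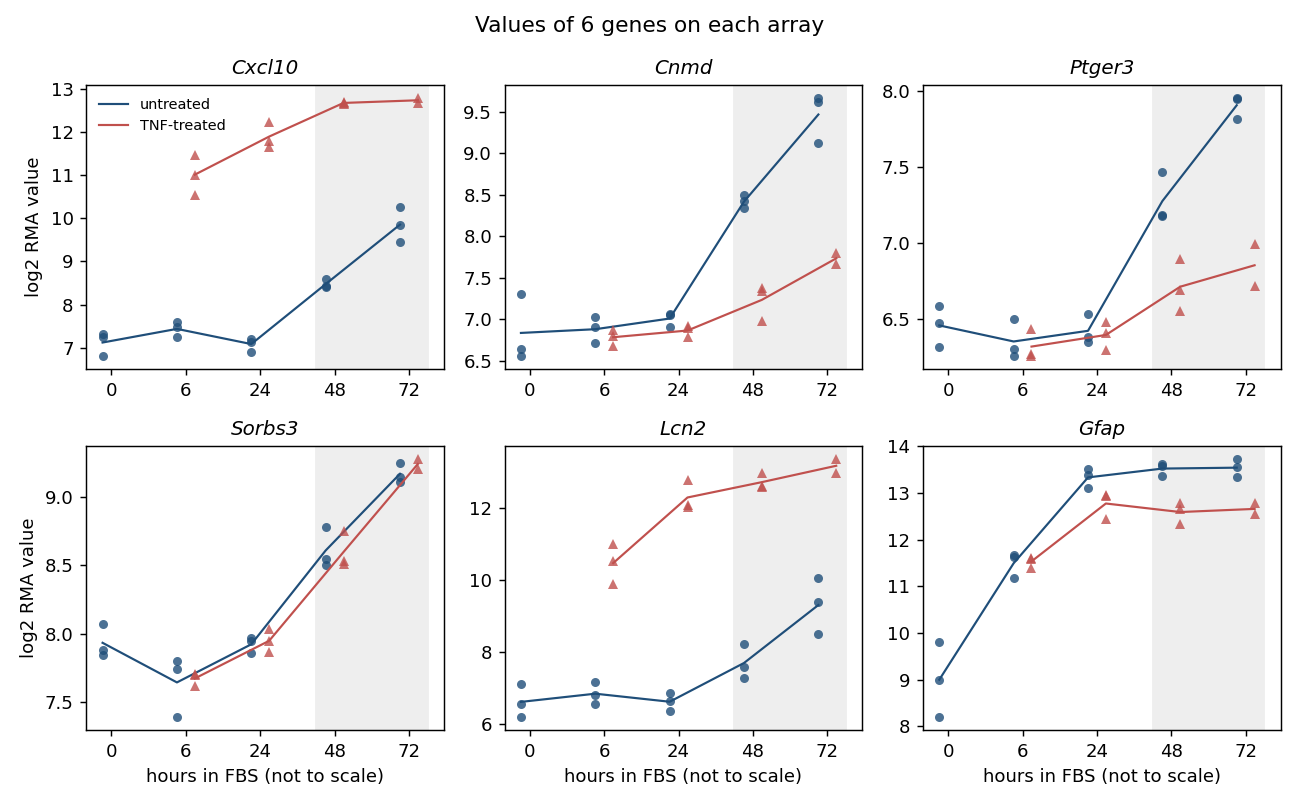
Log2 signal of 6 genes on each array (points) against hours in FBS, with lines through group means, for untreated (circles) and TNF-treated cells (triangles). The shaded band holds 48 and 72 h. *Cxcl10* and *Cnmd* climb from 24 h on in untreated cells, to 9.85 and 9.47 at 72 h, while *Gfap* lies near 13.5 at 48 and 72 h.

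Genes lower at 72 h were likewise picked by p-value from those with non-overlapping groups. Their p-values were weak, and all had a q-value of 1. *Nid1*, encoding the basement membrane protein nidogen 1, measured 8.06, 8.34 and 8.45 at 48 h and 7.66, 7.62 and 7.89 at 72 h, a difference of -0.56 with a standard error of 0.16. *Plxnd1*, a semaphorin receptor, differed by -0.48, *Tnfrsf21*, a death-domain receptor, by -0.30, and *Ftl1*, encoding the ferritin light chain, by -0.29. *Cntnap4*, a neuronal adhesion gene, differed by -0.31. The other 5 (*Cngb3*, *Gzmn*, *Pnma3*, *Olfr564* and *V1ra8*) had signals under 6 on all 6 arrays, at the dim end of the array, and differences of -0.25 to -0.44.

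The label of the cells was checked with astrocyte markers. *Gfap* went from 9.0 at 0 h to 13.33 at 24 h. It measured 13.36, 13.62 and 13.58 at 48 h and 13.55, 13.34 and 13.73 at 72 h, and the groups overlapped. The difference was 0.02 with a 95% interval from -0.53 to 0.57, so changes inside that range could not be told from none. The mean over the 31 measured mature astrocyte markers ran from 10.85 to 11.39 over the arrays of 0 h. It ran from 11.62 to 11.68 over the arrays of 48 h, and from 11.51 to 11.75 at 72 h. Not every marker rose from 0 h as *Gfap* did. The mean of *Aldh1l1* was 11.37 at 0 h, 11.42 at 48 h and 10.96 at 72 h.

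Of these 31 markers 15 were above 0 and 16 below, with a median difference of -0.01. *Chrdl1*, a secreted BMP antagonist, measured 9.10, 9.26 and 9.02 at 48 h and 10.08, 9.56 and 9.71 at 72 h, a difference of 0.65 (95% interval 0.07 to 1.24, q = 1). *Aldh1l1*, the folate enzyme used as a general astrocyte marker, measured 11.41, 11.65 and 11.20 and then 11.09, 10.95 and 10.83, a difference of -0.46 (95% interval -0.84 to -0.08, q = 1). The groups of both genes were apart, and they pointed in opposite directions. The glutamate transporter *Slc1a3* differed by 0.01 and the water channel *Aqp4* by -0.19.

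Of 16 measured early astrocyte and gliogenic regulators none changed, with differences from -0.20 (*Lhx2*) to 0.10 (*Id4*) and a median of -0.05. The intermediate filament gene *Vim* differed by 0.04 with a standard error of 0.08. None of the 19 measured JAK-STAT3 genes changed, with *Stat3* at -0.02 and its feedback inhibitor *Socs3* at -0.03. None of the 25 measured Notch genes changed, with *Hes1* at -0.11 and *Hes5* at -0.24. In the BMP and TGF-beta list of 34 the targets *Id1* and *Id3* differed by -0.16 and -0.24, and the ligand *Bmp6* by 0.66 (95% interval 0.13 to 1.18, q = 1).

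None of the progenitor and cell cycle genes passed the test. Among 26 measured stem and progenitor genes the transcription factor *Gli3* differed by -0.35 (95% interval -0.63 to -0.08, q = 1), and *Prom1* and *Msi1* differed by 0.04 and -0.06. *Mki67*, a marker of cycling cells, measured 6.99, 7.34 and 6.44 at 48 h and 6.42, 7.91 and 6.71 at 72 h, against a mean of 10.00 at 0 h. The groups overlapped and replicate 2 was the highest at both times. Its difference was 0.09, with a 95% interval from -2.19 to 2.37. Of 39 mitosis genes 27 were above 0, and the list's median was 0.02, with -0.07, 0.15 and -0.03 in the 3 pairs. The 33 DNA replication genes had a median of -0.04. For mitosis genes the interval reached 2.0 to each side of the estimate at the median gene, against 0.30 for all genes. That width comes from a spread pooled over all groups. The SD of *Mki67* over the neurosphere arrays was 2.13, while over the 48 h and 72 h groups it reached only 0.45 and 0.79.

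Genes of reactive astrocytes were more often above 0 than below. Of 32 measured 1 changed, *Cxcl10*, and 22 were above 0, 68.8% beside 44.2% of all genes. The mean over the list ran from 8.90 to 9.04 on the arrays of 48 h and from 9.08 to 9.26 at 72 h, so the groups did not overlap. In 7 genes, 21.9%, the 3 arrays of 72 h were all above those of 48 h, beside 3.57% of all genes. The list's median was 0.04, with 0.16, 0.01 and 0.10 in the 3 pairs. *Serping1*, the C1 inhibitor of complement, measured 8.17, 8.50 and 8.73 at 48 h and 9.70, 8.81 and 9.63 at 72 h, a difference of 0.92 (95% interval 0.38 to 1.46, q = 1). *Srgn*, a proteoglycan of secretory granules, differed by 0.50 (95% interval 0.15 to 0.86), and *Serpina3n*, an acute phase protease inhibitor, by 0.77 with a standard error of 0.63. *Cd44*, *Osmr* and *Timp1* differed by -0.08, 0.16 and -0.10. This list has genes that the study also picked from these arrays, so it is not independent evidence of a direction.

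Of 28 chemokines and cytokines 1 changed and 9 were above 0, with a median of -0.02. After *Cxcl10* came *Ccl2*, a monocyte chemokine, with 7.65, 8.24 and 8.23 at 48 h and 8.63, 9.47 and 8.86 at 72 h. Its groups were apart and the difference was 0.95 with a standard error of 0.35 (95% interval 0.21 to 1.69, q = 1). *Ccl5*, a T cell chemokine, differed by 0.33 (95% interval 0.03 to 0.62). The cytokine genes *Tnf*, *Il1b* and *Il6* differed by -0.07, -0.03 and 0.13, and the chemokine *Ccl7* by 0.25.

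Among 19 NF-κB genes, a list that mixes subunits with induced targets, none changed and 10 were above 0. *Nfkbia*, the inhibitor that NF-κB itself induces, differed by 0.04 and the subunit *Rela* by 0.05. The smallest p-value in the list belonged to *Birc3*, an inhibitor of apoptosis, at -0.31 (95% interval -0.60 to -0.02, q = 1). Of 26 interferon-stimulated genes none changed and 17 were above 0, with a median of 0.04. *Xaf1* differed by 0.23 (95% interval 0.02 to 0.44), *Ifit1* by 0.24 and *Rtp4* by 0.27. Complement genes had a median of -0.04 over 19 members, with *C4b* at 0.50 (95% interval 0.03 to 0.97) after a rise of 1.42 on the day before.

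Genes of motile cilia, which ependymal cells carry, were mostly above 0. Of 28 measured 19 were above 0, 67.9% beside 44.2% of all genes, and the median was 0.10. None changed by the test. At an unadjusted p under 0.05, 3 were higher and 0 lower, beside 0.662% and 0.431% of all genes. The 3 arrays of 72 h were all above those of 48 h in 7.14% of the list and all below in 3.57%, beside 3.57% and 3.96% of all genes. *Cfap52*, a cilium protein gene, measured 8.28, 8.19 and 8.52 at 48 h and 9.12, 8.51 and 9.31 at 72 h, a difference of 0.65 with a standard error of 0.17 (q = 1). Its groups overlapped by 1 array, 72 h replicate 2. *Rsph4a*, encoding a radial spoke head protein, measured 7.26, 8.22 and 7.85 and then 8.34, 8.29 and 8.52, a difference of 0.61 that was 0.35 without 48 h replicate 1. *Dnah9*, a heavy chain of axonemal dynein, differed by 0.36.

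The regulators of this programme stood lower in the order. *Foxj1*, the master factor of motile cilia, differed by 0.10, *Mcidas* and *Ccno* by -0.09 and -0.13, and *Rfx2* and *Rfx3* by 0.04 and -0.01. The list's median was 0.18, 0.05 and 0.16 in the 3 pairs and 0.09 without 48 h replicate 1, and from 24 to 48 h it had been 0.24. From 6 to 24 h 7 of its 28 members had risen by the test, beside 1005 of all 19938 genes.

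**Figure D3:**
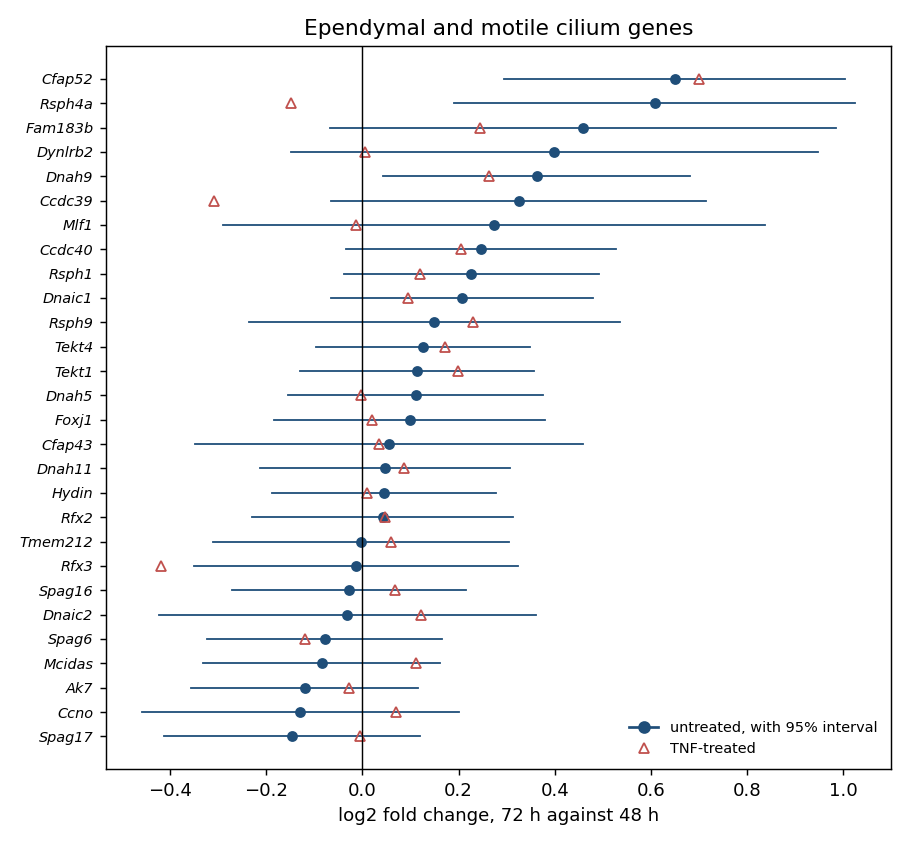
Log2 fold change of 28 ependymal and motile cilium genes at 72 h against 48 h, with 95% intervals for untreated cells (circles) and estimates for TNF-treated cells (triangles). In untreated cells 19 of 28 points lie above 0, and the intervals of *Cfap52*, *Rsph4a* and *Dnah9* exclude 0 before adjustment.

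Cholesterol synthesis genes were mostly below 0. Of 24 measured none changed, 6 were above 0 and the median was -0.14. In 9 genes, 37.5%, the 3 arrays of 72 h were all below those of 48 h, beside 3.96% of all genes. They were enzymes of the pathway such as *Lss* at -0.40, *Fdps* at -0.31, *Idi1* at -0.27 and *Cyp51* at -0.27, together with the factor that drives them, *Srebf2*, at -0.14. *Insig1*, a sterol-sensing target of that factor, had the smallest p-value, with 11.66, 11.52 and 11.20 at 48 h and 11.09, 11.29 and 11.01 at 72 h (difference -0.33, 95% interval -0.68 to 0.02, q = 1). The list's median was -0.07 without 48 h replicate 1, and the 3 pairs gave -0.17, -0.15 and -0.06. In fatty acid and lipid genes the median was -0.07 over 29, with lipoprotein lipase (*Lpl*) at -0.43 (95% interval -0.82 to -0.04).

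None of the 37 measured matrix proteins and proteoglycans changed, and 12 were above 0. The highest were *Ogn*, *Omd* and *Prelp*, small leucine-rich proteoglycan genes, at 0.82, 0.80 (95% interval 0.23 to 1.37) and 0.80, and the lowest were *Nid1* at -0.56, *Tnr*, encoding tenascin R, at -0.49, and *Ncan*, encoding neurocan, at -0.46. *Omd* measured 7.30, 8.14 and 7.43 at 48 h and 7.99, 9.28 and 8.0 at 72 h, with replicate 2 far above the others at both times. The list's median of -0.11 was -0.03 without 48 h replicate 1. Among proteases of the matrix, *Adamts9*, an aggrecanase gene, differed by -0.49 (q = 1), and its other 5 probe sets, which read the same gene and are no replicates, by -0.39 to -0.63. The 29 collagens had a median of -0.09, which lay in the first pair (-0.29 beside 0.02 and 0.01 in the others).

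Genes of guidance and adhesion had a median of -0.10 over 45, of which 10 were above 0. *Cdh13*, a cadherin without a cytoplasmic domain, differed by -0.41 (95% interval -0.79 to -0.03, q = 1) and the semaphorin co-receptor *Nrp2* by -0.42. Contractile and actin genes lay on the other side with a median of 0.14 over 23, led by *Cnn1* at 0.70 and *Myl9* at 0.54, whose replicates spread widely. Their median was 0.02 without 48 h replicate 1 and -0.02 without 72 h replicate 2. Ribosomal protein genes had a median of -0.05 over 44, and clock genes one of 0.00 over 21.

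**Figure D4:**
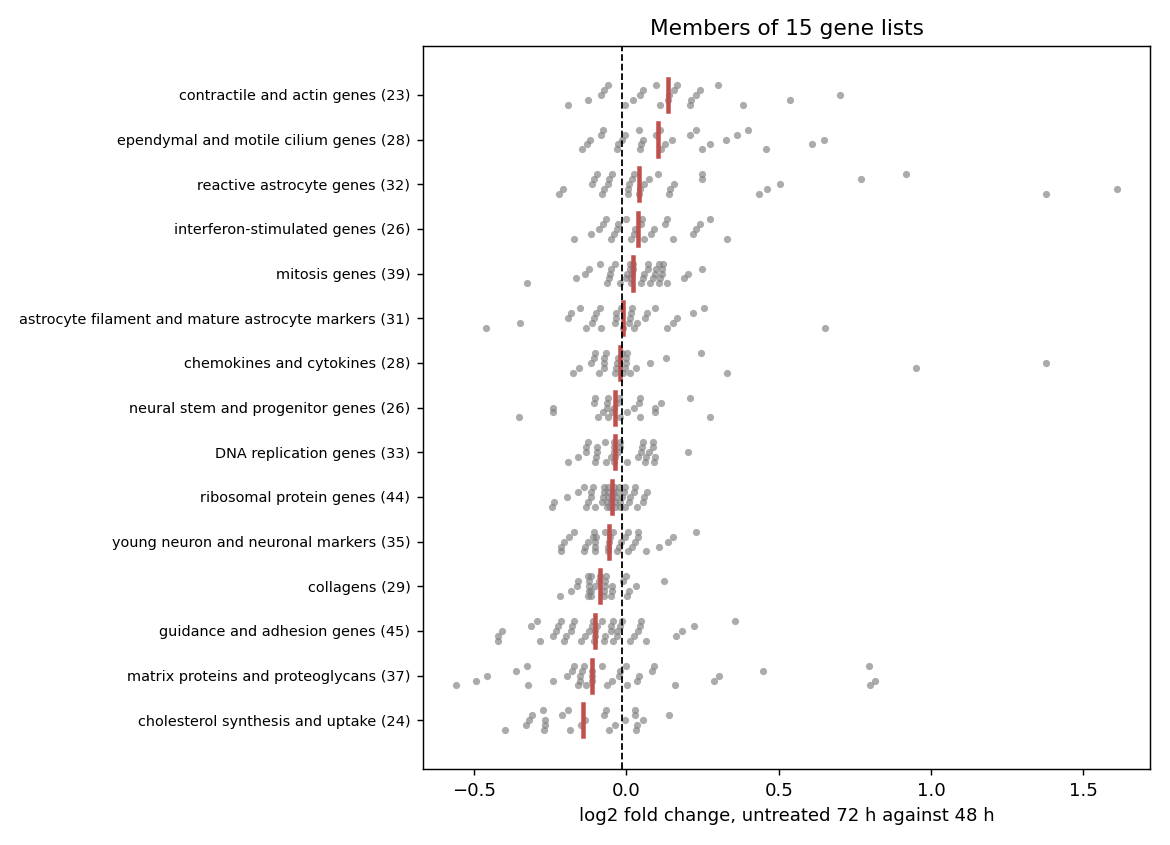
Each point is the log2 fold change of 1 gene at 72 h against 48 h in untreated cells, for 15 gene lists with the number measured in brackets. Red bars mark each list's median and the dashed line the median of all genes, -0.01. List medians stay between -0.14 and 0.14, and single genes such as *Lcn2* (1.61) and *Cxcl10* (1.38) lie far to the right.

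Over all 51 lists, with 1156 of 1273 genes measured, *Cxcl10* was the one member that changed, and the list medians ran from -0.14 (cholesterol) to 0.14 (contractile). No marker of another cell type changed. Their medians were -0.06 for 35 neuronal, -0.04 for 22 oligodendrocyte, -0.05 for 22 microglia, -0.06 for 21 endothelial and mural, -0.05 for 24 meningeal and -0.05 for 5 red blood cell genes. Without 48 h replicate 1 they were 0.00, 0.02, 0.02, 0.06, -0.02 and 0.05 in the same order, so their sign rested on that array in all but the meningeal list. The mean over the microglia markers ran from 6.63 to 6.84 at 48 h and from 6.61 to 6.67 at 72 h, and *P2ry12* and *Tmem119* differed by -0.05 and -0.01. The part of other cells in the rise of *Cxcl10* was not tested.

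Most genes that had risen on the day before were above 0 again. Of 36 genes that changed from 24 to 48 h, 35 had risen, by a median of 1.04 over the 36. From 48 to 72 h the same 36 had a median difference of 0.36, and 33 of the 35 were above 0. Both differences share the arrays of 48 h, which enter them with opposite signs. *Glycam1*, a secreted mucin-like protein gene, had risen by 2.22 and then differed by 0.07. *Plscr2*, a phospholipid scramblase gene, had risen by 2.02 and then differed by 0.36. *Ucma*, a cartilage matrix protein gene, had risen by 1.98 and then differed by 0.90 (95% interval 0.20 to 1.59, q = 1). *Grm4*, a metabotropic glutamate receptor gene and the one that had fallen, by 1.11, then differed by -0.46.

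**Figure D5:**
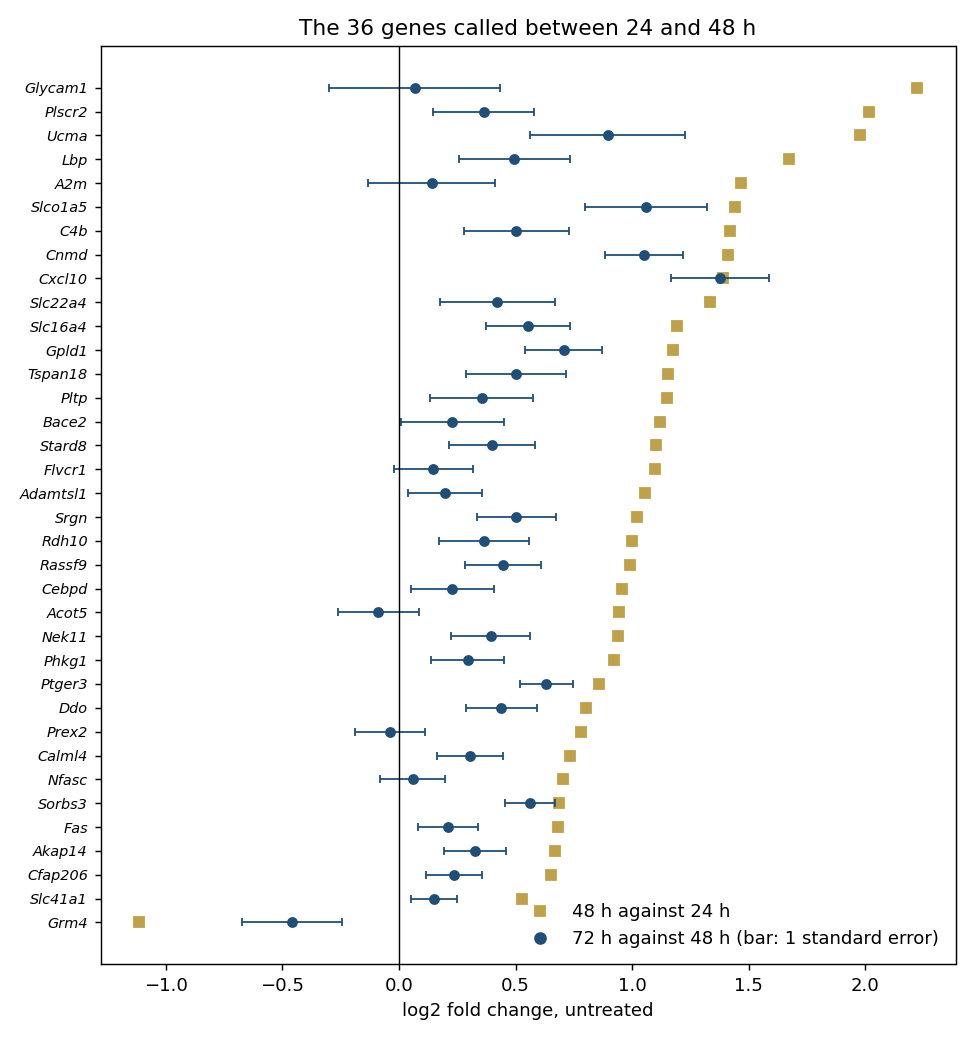
Log2 fold change of the 36 genes that changed from 24 to 48 h in untreated cells (squares) and of the same genes from 48 to 72 h (circles, with 1 standard error). The later values have a median of 0.36 beside 1.04 for the earlier ones, and *Cxcl10* has nearly equal values at both steps (1.39 and 1.38).

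The pace of change was tested as the difference of both steps. No probe set passed, 0%, and 368 had an unadjusted p under 0.05. The smallest p-values among named genes were those of *Adamtsl1*, encoding a secreted matrix protein, whose step was smaller on the last day (0.98 and then 0.11), and of *Plscr2* (2.02 and then 0.36), both with a q-value of 1. For *Cxcl10* the steps differed by -0.01 and for *Cnmd* by -0.36, also with q = 1.

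Genes of the first day gave a comparison that shares no array with the last day. Of 2188 genes that had risen from 0 to 24 h, 61.1% were above 0 from 48 to 72 h, with a median of 0.03. Of 1570 that had fallen, 32.2% were above 0, with a median of -0.04, and of the 16180 others 43.1% were. In the 3 pairs the median of the genes that had risen was 0.10, -0.03 and 0.01, and that of the genes that had fallen was -0.08, -0.0022 and -0.02. The first pair, which holds 48 h replicate 1, gave the largest values, and no median without that array was computed here. With TNF the medians from 48 to 72 h had the other sign, -0.06 for genes that had risen and 0.05 for those that had fallen, beside 0.02 for the others. The TNF medians rest on 3 arrays of 48 h and 2 of 72 h, and the difference in sign was not tested. The 3 arrays of 72 h were all above those of 48 h in 5.76% of the genes that had risen, and all below in 7.77% of those that had fallen, beside 3.57% and 3.96% of all genes.

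With TNF no probe set passed the test from 48 to 72 h, 0%, while 834 had an unadjusted p under 0.05. These 5 arrays are separate from the untreated ones. The difference between both changes was tested directly, and again no probe set passed, 0%, with 419 at an unadjusted p under 0.05. *Cxcl10* stood at 12.67 and 12.73 with TNF and differed by 0.06 (the untreated change was greater by 1.32 with a standard error of 0.31, q = 1). *Cnmd* stood lower with TNF, at 7.23 and 7.73, and differed by 0.50 (q = 1 for the difference from untreated cells). *Sorbs3* differed by 0.64 with TNF and by 0.56 without, and *Nid1* by -0.56 in both.

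*Ccl2* and *Rsph4a* had opposite signs in the untreated and TNF-treated cells, 0.95 beside -0.39 and 0.61 beside -0.15 (q = 1 for the difference in both genes). *C1s2*, a complement protease gene, had the next smallest p after *Cxcl10* among named genes higher without TNF, 0.43 beside -0.64 (q = 1). Mitosis genes had a median of -0.18 with TNF, where 2 of 39 were above 0, and of 0.02 without. Of all genes, 11084 of 19938 were above 0 with TNF. By number, TNF replicate 3 was measured at 48 h and not at 72 h. What that does to the list's median was not tested. None of these differences between treatments passed the test.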

How the data were processed

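RNA of 26 samples was hybridised to Affymetrix MoGene 1.0 ST arrays. The values were used as deposited: log2 signals that the authors made with RMA of the oligo package in R 3.3.1, per the labels. RMA forces all arrays to 1 distribution, so a change shared by most genes cannot be seen. Symbols came from the platform annotation, and 12146 probe sets have none. Coordinates came from RefSeq for GRCm38.p6. limma 3.58.1 in R 4.3.3 fitted 9 group means over all 26 arrays, with q-values from an own implementation of the qvalue smoother, tested on simulated data. The labels do not say whether arrays are separate cultures, so p-values measure the spread between these arrays.

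The comparisons and the 51 lists were chosen with earlier results of these data known. Named genes are up to 15 called in each direction, filled to 10 by p-value, the genes the paper names, the 3 smallest p-values of each list and the 5 smallest in each direction of both difference tests. The called and the filled genes were required to have non-overlapping groups. Other genes named as list members were chosen after their values were seen. Replicate numbers were taken to pair arrays because all 3 correlations passed 0.1. Correlations of differently numbered arrays ran from -0.522 to 0.185, below those 3, but the highest of them passed 0.1 as well. Alternatives were other thresholds, fewer arrays, cyclic loess, a trended prior, array weights, the replicate block, dim or ambiguous probe sets left out, and each array of 48 and 72 h left out (for the difference tests, each array of the contrast).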

Additional observations from a re-analysis of the deposited data

How the results depend on the processing

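No named gene that changed lost its direction under any alternative. *Cxcl10* ran from 1.17 to 1.58 and *Cnmd* from 0.95 to 1.23, and each had a q-value under 0.05 in 12 of 21 alternatives. Those 12 include the alternative with the stricter threshold of 0.01, which neither gene met (limma q-values 0.0363 and 0.0374). Of 191 named genes 23 had another sign somewhere, none of them called. The count of 3 for 72 h against 48 h, all higher, was 1 at q under 0.01, 0 with only the 6 arrays compared, 0 with the replicate block on these 6, and 1 without replicate 1 at both times (an alternative added after seeing the data). Leaving out single arrays of the 6 gave 1 to 2. With only the 15 untreated arrays it was 2, without *Cxcl10* and *Cnmd*. With all 26 arrays the replicate block left it at 3. Array weights gave 20, of which 17 were higher and 3 lower, but their estimate did not converge, and a gene-by-gene estimate added for that reason gave 7, all higher.

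For 48 h against 24 h the count of 43 was 16 at q under 0.01, 26 with a minimum log2 fold change of 1, 21 with only the 15 untreated arrays, 675 and 357 with both kinds of array weights, 109 with the replicate block, 25 without replicate 1 at 48 and 72 h, and 19 to 47 without single untreated arrays of 48 or 72 h (those of 24 h were not left out here). For 24 h against 6 h, 1784 became 744, 334, 1114, 16518, 5772 and, with the block, 3421. For 6 h against 0 h, 2727 became 1291, 624, 17556, 1670 and, with the block, 4707, and stayed within 1.5 times with the untreated arrays. TNF at 72 h against 48 h and both difference tests stayed at 0 except with array weights, where both kinds gave 1, 2 for untreated against TNF-treated and 1 for the pace. The cause of these shifts was not tested.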
